A study of Mus musculus with 6 samples.

Results

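The 45 genes described here encode proteins that repair DNA or signal its damage. They were chosen by gene symbol for their known roles, but with earlier results of these data known. All 45 of them were found among the 16171 genes of the count table. They were expressed in Raw264.7 cells, a mouse macrophage line with the genotype label WT, grown on titanium. One group grew on nanowires of titanate from alkaline heat treatment (TH, the control; libraries TH1, TH2 and TH3) and the other on a calcium phosphate nanowire coating (THCaP; libraries THCaP1, THCaP2 and THCaP3). Cells of both groups attached for 12 h, received 1 µg/mL lipopolysaccharide (LPS, a bacterial product that activates macrophages) for 2 h and were kept for 1 d before RNA-seq. There was no library without LPS and none from cells treated with a DNA-damaging agent, and the cells are a single transformed line. No label tells if replicates were grown as separate cultures, so p-values measure only the spread between these libraries.

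A cell repairs each kind of DNA damage by a different route. Breaks through both strands are mended either by homologous recombination, which copies the sister chromatid after replication, or by end joining, which needs no template. The Fanconi anaemia pathway removes crosslinks between the strands, mismatch repair corrects copying errors, and excision repair replaces damaged bases or short stretches. Checkpoint kinases sense damage and stalled replication forks and hold the cell cycle. Many genes of recombination, of the Fanconi pathway and of the replication checkpoint are known to be transcribed in S phase under E2F transcription factors, whereas end joining and damage sensing operate through the cycle.

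Promoter sequences are shown first. The E2F motif was searched because E2F control of such genes is well known, and its part in these data was not tested. RefSeq (GRCm38.p6) gave a promoter for 36 of the 45 genes, and 250 bases before each start were searched on both strands. The genes without an entry were Ddb2, Exo1, Fancd2, Nbn, Rad50, Rad54b, Rad9a, Xpc and Xrcc2. An E2F word, that is TTTCCCGC, TTTCGCGC, TTTGCCGC or TTTGGCGC, stood before 7 genes. It stood before 5 of the 20 genes called higher on THCaP that had a promoter entry, and before 2 of the 16 not called. These 5 are printed 5′ to 3′ along the gene's own strand with the E2F word, or its reverse complement, in capitals. The stretches are those of Brca2 at chr5:150522407-150522506 (plus strand), Bard1 at chr1:71103147-71103222 (minus), Topbp1 at chr9:103305115-103305214 (plus), Chek2 at chr5:110839785-110839884 (plus) and Fancg at chr4:43010335-43010364 (minus).
Brca2: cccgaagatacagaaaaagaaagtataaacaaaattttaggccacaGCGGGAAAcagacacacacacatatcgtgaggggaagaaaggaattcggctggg
Bard1: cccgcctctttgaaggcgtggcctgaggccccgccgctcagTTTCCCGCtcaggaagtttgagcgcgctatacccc
Topbp1: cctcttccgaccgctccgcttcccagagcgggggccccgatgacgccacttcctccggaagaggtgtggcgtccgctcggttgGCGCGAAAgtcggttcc
Chek2: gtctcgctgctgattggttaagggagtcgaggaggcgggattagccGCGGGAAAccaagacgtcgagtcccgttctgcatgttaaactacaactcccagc
Fancg: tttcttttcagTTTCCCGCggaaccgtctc

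The word began 168 bases before the RefSeq start in Brca2, 209 in Bard1, 129 in Topbp1, 152 in Chek2 and 52 in Fancg. The Fancg word lies in an exon of Fancg in the GENCODE vM21 annotation, which places the start farther upstream, and only the site is shown. GENCODE also places the starts of Bard1 (71103146) and Topbp1 (103305215) farther upstream than RefSeq. The printed stretches of these genes end just before the GENCODE starts, so their words lie nearer to those starts than the distances given. Of the 39 windows of these genes (some genes have more than 1 start) 7 held the word, or 17.9%, against 3.32% of the 11783 windows of all tested genes and 1.86% of all 32851 windows. The other 2 genes with it, Msh3 and Xrcc6, were not called. The CCAAT box, written CCAAT, stood in 46.2% of the windows and in 35.8% of those of tested genes. It was in 66.7% of the 21 windows of called genes and 22.2% of the 18 windows of genes not called, against 23.8% and 11.1% for the E2F word. Windows of Rad54l nearly coincide and hold the same CCAAT. By gene, the CCAAT box stood before 13 of the 20 called genes and 4 of the 16 not called. The cell cycle element CHR, TTTGAA or TTCGAA, stood in 12.8% and 12.6%. Matches of different motifs did not overlap in any of the 39 windows. Words of this kind are letters in a window and were not tested as binding sites.

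On THCaP the repair genes were mostly higher. Of 45 genes, all of which passed the filter on low counts, 23 were called higher at an edgeR adjusted p under 0.05, and 22 were not called. In the background of 11480 tested genes 11.6% were called higher and 23.6% in either direction. None of the 45 was called lower by edgeR, DESeq2 or limma-voom, or by edgeR at an unadjusted p under 0.05, against 12.0% of all tested genes called lower by edgeR. The median log2 fold change (THCaP over TH) was 0.47, against 0.0064 for all tested genes, and 40 of 45 were above 0. The changes were moderate: called genes rose between 1.25-fold and 1.93-fold, and 0 of them reached 2-fold. In 28 of the 45 genes all 3 THCaP libraries stood above all 3 TH libraries, against 22.1% of all tested genes.

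The count changed with the omission of any single library. It was 16 without TH1, 10 without TH2, 15 without TH3, 12 without THCaP1, 19 without THCaP2 and 34 without THCaP3. The count over all tested genes moved too. There 1333 genes were called higher with all libraries, and 1071, 294, 294, 291, 734 and 2145 in the same omissions. Only 9 of the 23 calls survived the removal of every library in turn: Brca1, Brca2, Rad51ap1, Rad54l, Exo1, Fanca, Fancg, Fanci and Xrcc5. The median log2 fold change of the 45 stayed between 0.35 and 0.56 over these omissions. Across the 23 called genes THCaP2 was the highest library in 21 and THCaP3 the lowest THCaP library in 19.

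**Figure D1:**
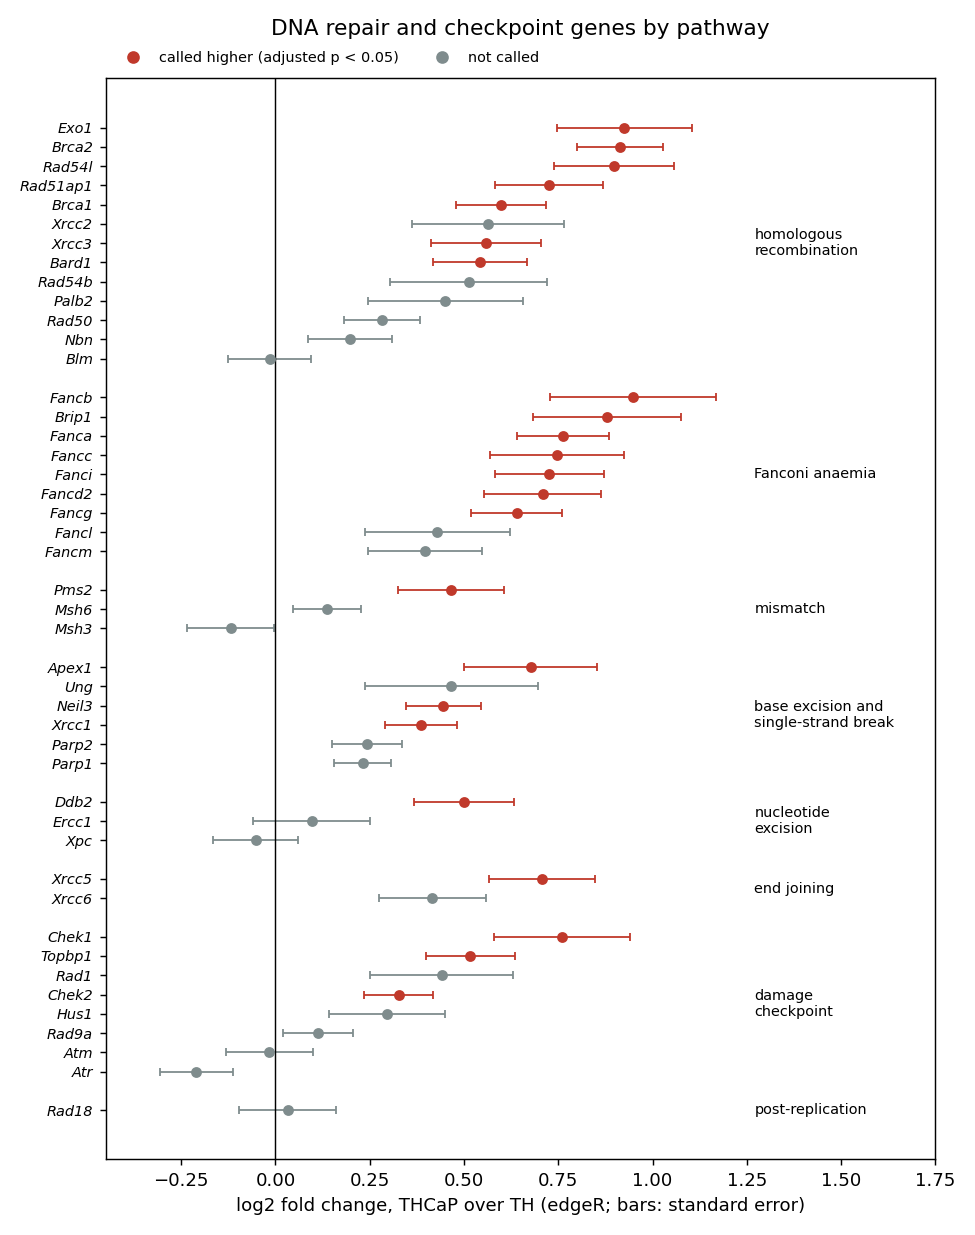
Log2 fold change (THCaP over TH, edgeR) of each of the 45 genes with its standard error, grouped by repair pathway. Red points are the 23 genes called higher, grey points the 22 not called, and the genes below 0 are Blm, Msh3, Xpc, Atm and Atr.

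Homologous recombination held 13 of the genes, of which 7 rose, beside 11.6% of all tested genes called higher. The number called ranged from 5 (without TH1 or TH2) to 10 (without THCaP3) over the omissions. Brca2, a central recombination gene, was measured at 20.8, 23.1 and 23.2 CPM (counts per 1000000, scaled with TMM factors) in TH1, TH2 and TH3, against 43.3, 47.2 and 36.0 CPM in THCaP1, THCaP2 and THCaP3. Values of other genes follow in this order. Each THCaP library was above each TH library by a wide margin. Brca2 rose 1.88-fold (log2 0.91, SE 0.11, edgeR adjusted p = 0.00282), with the lowest adjusted p of the 45. The gene lies on chromosome 5 from 150522630 to 150570329 in GRCm38 and is protein coding. Brca1 and Bard1 encode the ubiquitin ligase pair that promotes resection of broken ends. Brca1 stood at 29.0, 35.6 and 35.1 CPM on TH against 50.0, 57.0 and 43.8 CPM on THCaP (1.51-fold, log2 0.60, SE 0.12, edgeR adjusted p = 0.0106). Bard1 stood at 26.5, 27.5 and 31.0 CPM on TH against 44.3, 45.7 and 33.8 CPM on THCaP (1.46-fold, log2 0.54, SE 0.13, edgeR adjusted p = 0.0173). Both genes had THCaP3 closest to TH. The Bard1 call was lost without TH1 (edgeR adjusted p = 0.0505), TH2 (0.0692) or THCaP1 (0.0723).

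Genes that act on resected ends and in strand exchange rose as well. Exo1, the nuclease that extends resection, was measured at 15.3, 16.9 and 18.3 CPM on TH against 31.1, 41.2 and 23.7 CPM on THCaP. It rose 1.90-fold (log2 0.93, SE 0.18, edgeR adjusted p = 0.00955), with groups that did not overlap but a wide spread on THCaP. Rad54l, a motor protein that drives strand exchange, stood at 38.2, 38.0 and 46.2 CPM on TH against 71.9, 96.0 and 60.1 CPM on THCaP (1.86-fold, log2 0.90, SE 0.16, edgeR adjusted p = 0.00753). Rad51ap1, which stimulates strand exchange, stood at 15.3, 17.5 and 14.6 CPM on TH against 27.8, 29.8 and 20.7 CPM on THCaP (1.65-fold, log2 0.73, SE 0.14, edgeR adjusted p = 0.0102). In both genes the lowest THCaP library, THCaP3, lay above the highest TH library. Xrcc3, another recombination gene, went from 6.95 ± 0.314 to 10.2 ± 1.58 CPM, a rise of 1.47-fold (mean ± SD, n = 3 each, edgeR adjusted p = 0.026). That call was lost without any of TH1, TH2 and TH3 (adjusted p = 0.0593, 0.0736 and 0.0865) or THCaP2 (0.0706).

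Of the 6 recombination genes that were not called, 5 had positive log2 fold changes. Xrcc2 was low, at 4.14, 4.54 and 4.44 CPM on TH against 5.99, 8.36 and 5.05 CPM on THCaP (log2 0.56, SE 0.20, edgeR adjusted p = 0.0661). Its groups did not overlap. Rad54b, whose exons share 35.8% of their bases with Fsbp, stood at 7.15, 9.80 and 12.1 CPM on TH against 14, 16.7 and 10.8 CPM on THCaP (log2 0.51, SE 0.21, edgeR adjusted p = 0.1). Palb2, the bridge between BRCA1 and BRCA2, stood at 6.32, 10.2 and 11.4 CPM on TH against 14.2, 13.0 and 10.9 CPM on THCaP (log2 0.45, SE 0.21, edgeR adjusted p = 0.134). In Rad54b and Palb2 THCaP3 fell below TH3, so the groups overlapped. Without THCaP3, Xrcc2 (adjusted p = 0.0148) and Rad54b (0.0208) were called. Rad50 and Nbn, parts of the complex that first binds broken ends, had log2 fold changes of 0.28 (SE 0.10, edgeR adjusted p = 0.0656) and 0.20 (SE 0.11, 0.216). Rad50 was called without THCaP3 (adjusted p = 0.0177). Their partner Mre11a, not one of the 45, stood at 61.8 ± 5.24 CPM on TH against 61.6 ± 4.65 CPM on the other surface (n = 3 each).

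The helicase gene Blm had the highest level per length among these 13, at a mean of 12.0 FPKM (fragments per kilobase of gene and per 1000000 counts) over the 6 libraries. It stood at 59.8, 77.2 and 79.4 CPM on TH against 72.4, 73.8 and 67.7 CPM on THCaP. The THCaP values all lay inside the TH range, and the log2 fold change was −0.016 (SE 0.11, edgeR adjusted p = 0.931).

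In the Fanconi anaemia pathway 7 of 9 genes rose, beside 11.6% of all tested genes called higher. All 9 had positive log2 fold changes with a median of 0.73. The number called was 4 without TH2 or without THCaP1, and the median stayed between 0.63 and 0.83 over the omissions. The core complex is a ubiquitin ligase that marks the FANCD2 and FANCI proteins at a crosslink. Of its components, Fanca was measured at 22.3, 26.3 and 24.5 CPM on TH against 42.9, 46.6 and 34.6 CPM on THCaP (1.70-fold, log2 0.76, SE 0.12, edgeR adjusted p = 0.00577). Fancg stood at 11.9, 13.2 and 11.6 CPM on TH against 16.8, 21.3 and 19.1 CPM on THCaP (1.56-fold, log2 0.64, SE 0.12, edgeR adjusted p = 0.00861). In Fanca and Fancg the groups did not overlap. Fancb showed the largest fold change of the 45, at 3.64, 3.24 and 3.26 CPM on TH against 6.97, 8.09 and 4.53 CPM on THCaP (1.93-fold, log2 0.95, SE 0.22, edgeR adjusted p = 0.0178). Fancc, with the lowest level per length of the 45 (a mean of 0.721 FPKM), stood at 4.08, 2.99 and 3.44 CPM on TH against 6.27, 6.22 and 5.18 CPM on THCaP (1.68-fold, log2 0.75, SE 0.18, edgeR adjusted p = 0.019). The calls of Fancb and Fancc were less secure than those of Fanca and Fancg. Fancb lost its call without TH2 (adjusted p = 0.0675), TH3 (0.0682) or THCaP1 (0.0658), and Fancc did so without TH2 (0.0765), TH3 (0.0736) or THCaP1 (0.0793).

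The targets of the core complex moved together. Fancd2 was measured at 28, 39.8 and 40.9 CPM on TH against 62.4, 65.8 and 49.4 CPM on THCaP (1.63-fold, log2 0.71, SE 0.15, edgeR adjusted p = 0.0144; 0.0548 without THCaP1). Fanci stood at 17.5, 20.7 and 16.6 CPM on TH against 30, 35.9 and 24.8 CPM on THCaP (1.65-fold, log2 0.73, SE 0.14, edgeR adjusted p = 0.0105). TH1 was low for Fancd2 but not for Fanci. Brip1, a helicase that binds BRCA1, stood at 12.5, 15.2 and 14.9 CPM on TH against 25.6, 34.2 and 18.5 CPM on THCaP (1.84-fold, log2 0.88, SE 0.20, edgeR adjusted p = 0.0152), a call lost without TH1 (0.0535) or TH2 (0.0509). The catalytic ligase subunit Fancl stood at 9.29, 7.96 and 7.85 CPM on TH against 10.6, 14.7 and 8.52 CPM on THCaP (log2 0.43, SE 0.19, edgeR adjusted p = 0.13). The DNA translocase Fancm stood at 10.8, 15.6 and 12.8 CPM on TH against 16.5, 19.6 and 15.5 CPM on THCaP (log2 0.40, SE 0.15, edgeR adjusted p = 0.0831). In Fancl and Fancm THCaP3 lay within the TH range, and both were called without it (adjusted p = 0.0186 and 0.0397).

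**Figure D2:**
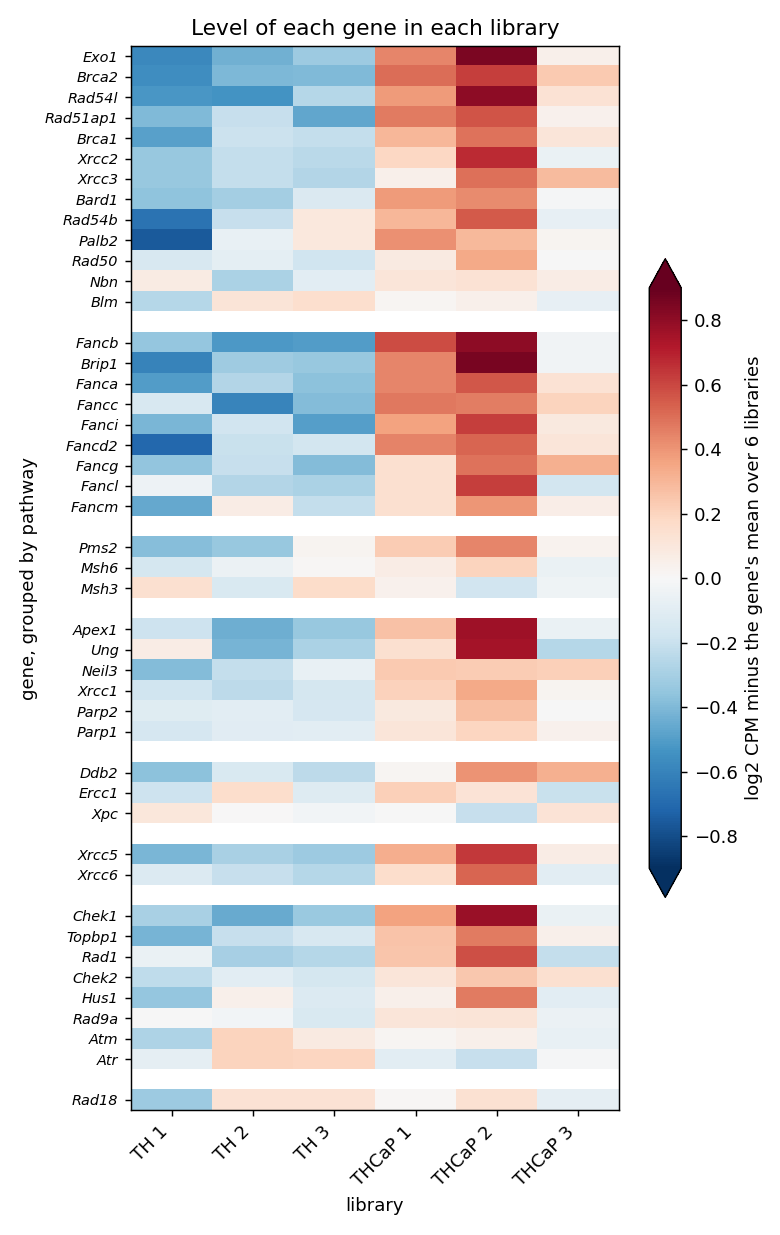
Level of each of the 45 genes in each of the 6 libraries, as log2 CPM minus the gene's own mean, in the same order and grouping as the plot of fold changes. THCaP2 is the highest library for 21 of the 23 called genes, and THCaP3 is paler than the other THCaP libraries.

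Mismatch repair divided between its parts. Pms2, an endonuclease subunit, was measured at 18.0, 18.5 and 23.9 CPM on TH against 27.6, 31.8 and 24 CPM on THCaP. The groups nearly touched, at 23.9 CPM in TH3 and 24 CPM in THCaP3. Pms2 rose 1.38-fold (log2 0.47, SE 0.14, edgeR adjusted p = 0.0406), and the call was lost without TH1 (0.11), TH2 (0.142), THCaP1 (0.108) or THCaP2 (0.1). Msh6, which recognises single mismatches, stood at 137, 147 and 153 CPM on TH against 160, 175 and 146 CPM on THCaP (log2 0.14, SE 0.090, edgeR adjusted p = 0.283). Msh3, which recognises longer loops, stood at 20.2 ± 2.30 CPM on TH against 18.6 ± 1.38 CPM on THCaP (n = 3 each, log2 −0.12, SE 0.12, edgeR adjusted p = 0.473). Per length, Msh6 was 7.78 ± 1.07 times as abundant as Msh3 on TH and 9.26 ± 1.43 times on THCaP (ratio of FPKM, n = 3 each).

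Of the 6 genes of base excision and single-strand break repair, 3 rose, beside 11.6% of all tested genes called higher. All 6 had positive log2 fold changes. The number called was 0 without TH2 or without THCaP1, and the median log2 fold change stayed between 0.25 and 0.46 over the omissions. Apex1, which cuts the backbone at a site that has lost its base, stood at 71.6, 60.1 and 64.3 CPM on TH against 97.6, 138 and 78.0 CPM on THCaP. THCaP2 was far above the rest, but the groups did not overlap. Apex1 rose 1.6-fold (log2 0.68, SE 0.18, edgeR adjusted p = 0.026), and the call was lost without TH1 (0.051), TH2 (0.0961), TH3 (0.0843) or THCaP1 (0.0575). Its exons share 61.7% of their bases with Pip4p1 on the opposite strand. Without a stated strand setting of the counting, reads of this pair cannot be told apart. Pip4p1 itself stood at 73.9 ± 3.15 CPM on TH against 69.5 ± 4.17 CPM on THCaP (edgeR adjusted p = 0.434).

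The glycosylase Neil3 rose 1.36-fold (log2 0.45, SE 0.10, edgeR adjusted p = 0.0153), from 25.3 ± 2.87 CPM to 34.5 ± 0.324 CPM (n = 3 each). The scaffold Xrcc1 rose 1.31-fold (log2 0.39, SE 0.095, edgeR adjusted p = 0.0212), from 45.7 ± 1.24 CPM to 59.7 ± 6.56 CPM. Neil3 lost its call without TH2 (0.0633) or THCaP1 (0.0668). Xrcc1 lost it without TH2 (0.0859), TH3 (0.0736) or THCaP1 (0.0828). Ung, which removes uracil, was uneven on both surfaces, at 21.7, 15.5 and 16.9 CPM on TH against 22.8, 34.7 and 17.3 CPM on THCaP (log2 0.47, SE 0.23, edgeR adjusted p = 0.161; 0.0144 without THCaP3). Parp1, the sensor of strand breaks, had the highest level per length of the 45, at a mean of 156 FPKM. It stood at 510, 529 and 532 CPM on TH against 612, 650 and 583 CPM on THCaP. Its groups did not overlap, yet the difference of 1.17-fold narrowly missed the threshold (log2 0.23, SE 0.076, edgeR adjusted p = 0.0512; 0.0242 without THCaP3). Parp2 gave a similar value (log2 0.24, SE 0.092, edgeR adjusted p = 0.0826; 0.029 without THCaP3), also with no overlap.

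In nucleotide excision repair Ddb2, the damage-binding subunit for ultraviolet lesions, stood at 9.69, 11.4 and 10.6 CPM on TH against 12.7, 16.5 and 15.6 CPM on THCaP. It rose 1.41-fold (log2 0.50, SE 0.13, edgeR adjusted p = 0.0271), a call lost without TH1 (0.0641), TH2 (0.0654), TH3 (0.0867) or THCaP2 (0.0645). The exons of Ddb2 share 23.8% of their bases with Acp2 on the opposite strand, which was not called (edgeR adjusted p = 0.566). The damage sensor Xpc (log2 −0.052, SE 0.11, edgeR adjusted p = 0.758) and the nuclease subunit Ercc1 (log2 0.096, SE 0.15, edgeR adjusted p = 0.676) were not called, and their groups overlapped.

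End joining was represented by the Ku heterodimer, which caps broken ends. Xrcc5, encoding Ku80, was measured at 15.4, 16.8 and 16.4 CPM on TH against 25.8, 32.0 and 21.5 CPM on THCaP (1.63-fold, log2 0.71, SE 0.14, edgeR adjusted p = 0.0105). Xrcc6, encoding Ku70, stood at 32.1, 30.3 and 29.3 CPM on TH against 39.0, 50.5 and 32.9 CPM on THCaP (1.33-fold, log2 0.42, SE 0.14, edgeR adjusted p = 0.0589; 0.00466 without THCaP3). Neither gene overlapped between groups. The FPKM ratio of Xrcc5 to Xrcc6 was 1.00, 1.16 and 1.17 on TH and 1.38, 1.32 and 1.36 on THCaP. All THCaP ratios lay above all TH ratios, which is given as a description, since the pair was chosen with its values known (exact two-sided permutation p = 0.1, the smallest that 3 against 3 allows; adjusted p = 0.2 over 8 gene pairs). The postreplication ubiquitin ligase Rad18 stood at 34.4, 47.3 and 47.2 CPM on TH against 43.5, 47.5 and 40.8 CPM on THCaP, with overlap between the groups (log2 0.032, SE 0.13, edgeR adjusted p = 0.874).

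Among the 8 checkpoint genes, 3 rose, beside 11.6% of all tested genes called higher. The kinases at the top of the cascade were not among these 3. Without TH2 or without THCaP1, 0 of the 8 were called. Atr, the kinase that responds to stalled forks, was measured at 134, 163 and 162 CPM on TH against 133, 123 and 141 CPM on THCaP. Its log2 fold change, −0.21 (SE 0.097, edgeR adjusted p = 0.14), was the lowest of the 45. Without TH1 it was −0.30 and called lower (adjusted p = 0.0387). Atm, the kinase that responds to broken ends, stood at 112, 155 and 143 CPM on TH against 137, 140 and 129 CPM on THCaP (log2 −0.016, SE 0.12, edgeR adjusted p = 0.931). All THCaP values of Atm fell within the range of the TH libraries.

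The kinase downstream of ATR behaved otherwise. Chek1 was measured at 18.4, 16.4 and 17.9 CPM on TH against 29.0, 38.7 and 21.7 CPM on THCaP (1.69-fold, log2 0.76, SE 0.18, edgeR adjusted p = 0.0188). Topbp1, the activator of ATR, stood at 135, 157 and 164 CPM on TH against 215, 250 and 186 CPM on THCaP (1.43-fold, log2 0.52, SE 0.12, edgeR adjusted p = 0.0165). Chek2, the kinase downstream of ATM, rose 1.25-fold from 20.6 ± 0.949 CPM to 25.9 ± 1.25 CPM (n = 3 each, edgeR adjusted p = 0.032), the smallest called change. In each of these the lowest THCaP library was above the highest TH library. Chek1 lost its call without TH2 (adjusted p = 0.0741), TH3 (0.0632) or THCaP1 (0.0546), and Topbp1 without TH2 (0.0569) or THCaP1 (0.0575). Chek2 lost it without any library except THCaP3 (0.0585, 0.0813 and 0.11 without TH1, TH2 and TH3, 0.0957 and 0.0802 without THCaP1 and THCaP2).

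The sliding clamp that recruits TOPBP1 to damaged forks consists of RAD9A, RAD1 and HUS1, and none of the genes was called by edgeR. Rad1 was the only one of these with an unadjusted p under 0.05, and 0 were called by DESeq2 or limma-voom. Rad1 stood at 9.83, 8.36 and 8.60 CPM on TH against 12.2, 15.4 and 8.83 CPM on THCaP (log2 0.44, SE 0.19, edgeR adjusted p = 0.116). Hus1 (log2 0.30, SE 0.15, edgeR adjusted p = 0.184) and Rad9a (log2 0.11, SE 0.093, edgeR adjusted p = 0.393) overlapped between groups as well. Rad1 (adjusted p = 0.00881) and Hus1 (0.0466) were called without THCaP3.

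**Figure D3:**
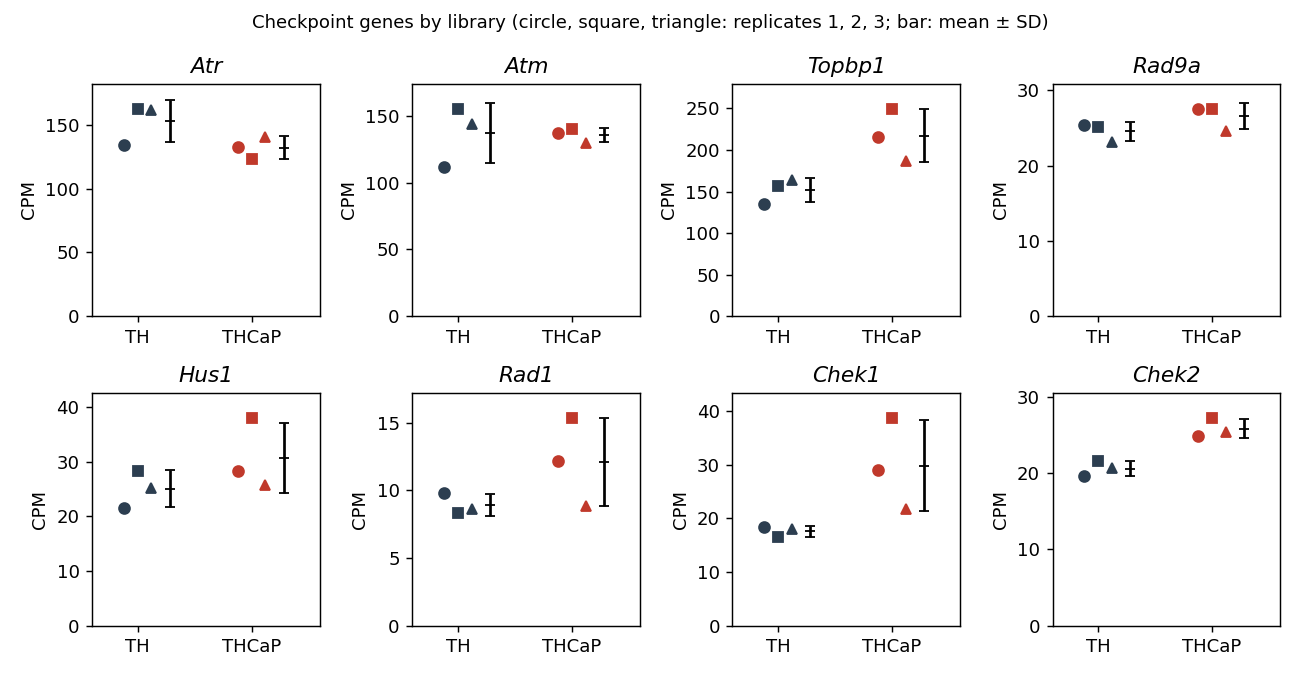
CPM of the 8 checkpoint genes in each library, with axes from 0; circles, squares and triangles are replicates 1, 2 and 3 and the bar is the mean ± SD of 3 libraries. Chek1, Chek2 and Topbp1 have every THCaP point above every TH point, whereas Atr, Atm, Rad9a, Hus1 and Rad1 overlap.

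Ratios between partner genes were formed within each library, where they do not depend on the scaling of libraries. The FPKM ratio of Chek1 to Atr was 0.389, 0.287 and 0.315 on TH and 0.620, 0.894 and 0.438 on THCaP. The ratio of Chek2 to Atm was 0.497, 0.393 and 0.407 on TH and 0.514, 0.551 and 0.556 on THCaP. In both pairs every THCaP library was above every TH library, and the same held for Topbp1 over Rad9a, at 2.30 ± 0.324 on TH and 3.02 ± 0.293 on THCaP. Other pairs overlapped between the surfaces. The ratio of Brca1 to Bard1 was 0.947 ± 0.0841 on TH and 0.988 ± 0.0688 on THCaP (exact permutation p = 0.6), and that of Fancd2 to Fanci was 1.92 ± 0.425 and 1.90 ± 0.120 (exact permutation p = 1). Rad50 to Nbn gave 4.10 ± 0.618 and 4.29 ± 0.458 (n = 3 per group in each case, exact permutation p = 0.5). Of the 8 pairs, which were chosen after the values were known, 4 did not overlap (exact permutation p = 0.1, adjusted p = 0.2 over 8), and a design of 3 against 3 cannot reach a lower p. Among single tested genes 43.4% did not overlap between the groups, in either direction. No share was formed for ratios of other gene pairs.

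**Figure D4:**
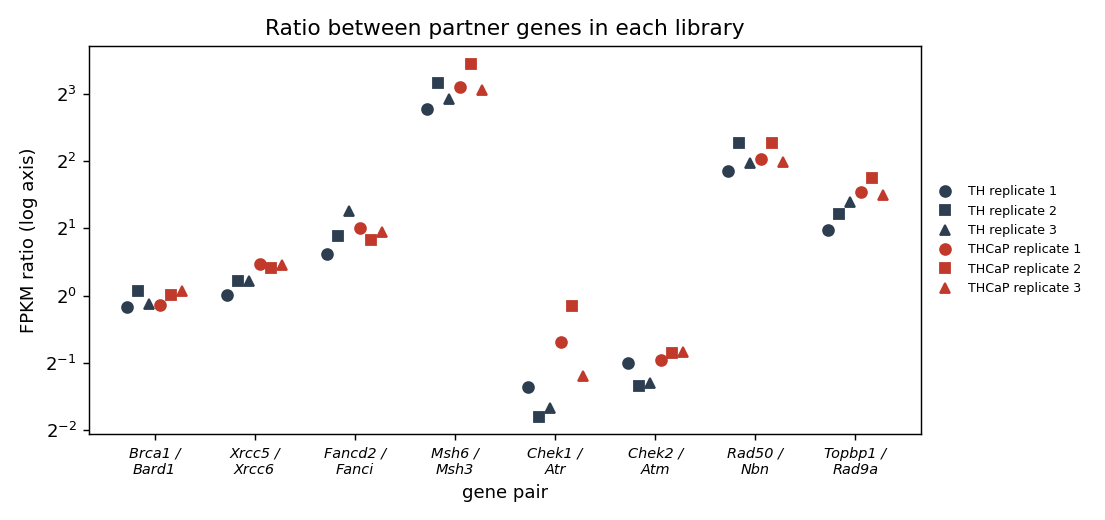
FPKM ratio between the genes of 8 pairs in each library on a log axis, dark for TH and red for THCaP. The ratios Xrcc5 to Xrcc6, Chek1 to Atr, Chek2 to Atm and Topbp1 to Rad9a separate the surfaces, and those of Brca1 to Bard1, Fancd2 to Fanci, Msh6 to Msh3 and Rad50 to Nbn overlap.

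A wider list of 154 genes of the same routes, with direct reversal and p53 target genes added, was fitted with the others, and 150 of them were tested. In this list 33 were called higher and 10 lower, or 22.0% higher beside 51.1% of the 45 and 11.6% of all tested genes, and the median log2 fold change was 0.12. This share and median include 15 p53 target genes and 3 direct reversal genes, classes not listed among the 45. Of these, 0 were called higher by edgeR. Without TH2, TH3 and THCaP1 in turn 13, 15 and 13 of the 150 genes were called higher and 3, 3 and 4 lower. The resolvase Gen1 rose 1.98-fold (log2 0.98, SE 0.15, edgeR adjusted p = 0.00513), among 12 of 31 further recombination genes that rose. The one that fell was Rad52 (log2 −0.43, SE 0.11, edgeR adjusted p = 0.0277), named after its value was seen. It stood at 50.1, 49.5 and 51.1 CPM on TH against 36.7, 31.8 and 43.7 CPM on THCaP, and its call was lost without TH1, TH2 or TH3 (adjusted p = 0.057, 0.079 and 0.0934) or THCaP1 (0.0997). In the Fanconi pathway 3 of 12 further genes rose, among them the core complex partners Faap100 (log2 0.81, SE 0.14, edgeR adjusted p = 0.00753) and Faap24 (0.75, SE 0.16, 0.0137; 0.0603 without TH2 and 0.0575 without THCaP1). Of 18 further checkpoint genes 5 rose, led by Clspn, the adaptor through which ATR activates CHK1 (1.98-fold, log2 0.99, SE 0.18, edgeR adjusted p = 0.00786), and the fork protection gene Tipin (1.70-fold, edgeR adjusted p = 0.0223). Tipin lost its call without TH1, TH2 or TH3 (0.0605, 0.0752 and 0.0763) or THCaP1 (0.0562).

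Of 15 further end joining genes 3 rose, or 20.0% beside 11.6% of all tested genes called higher. They included Polq, the polymerase that joins ends at short matching stretches (log2 0.80, SE 0.18, edgeR adjusted p = 0.0154), and Paxip1 (0.63, SE 0.12, 0.00835). The central kinase of end joining, Prkdc, was not called (log2 0.33, SE 0.13, edgeR adjusted p = 0.0985), and Trp53bp1 stood at 76.2 ± 8.63 and 75.5 ± 4.40 CPM. Base excision repair had 2 called higher of 19, or 10.5%, which is near the 11.6% of all tested genes. The median log2 fold change of the 19 was 0.082. The called genes were Fen1 (log2 0.84, SE 0.16, edgeR adjusted p = 0.00991), a flap nuclease that also serves replication, and Aplf (0.53, SE 0.14, 0.0249). Aplf lost its call without any library except THCaP3 (adjusted p up to 0.0865). Nucleotide excision repair had 4 higher and 1 lower of 18, beside 11.6% and 12.0% of all tested genes. The transcription factor subunit Gtf2h4 rose (log2 0.46, SE 0.098, edgeR adjusted p = 0.0136), while Ercc6, which acts where RNA polymerase stalls, fell (−0.47, SE 0.11, 0.0173). Without TH2, TH3 or THCaP1 the adjusted p was 0.0668, 0.0638 and 0.0532 for Gtf2h4 and 0.0609, 0.0771 and 0.0597 for Ercc6.

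Of 15 further genes of post-replication repair 2 were called higher and 3 lower, beside 11.6% and 12.0% of all tested genes, and 0 were called by edgeR without TH2, TH3 or THCaP1 (3 higher and 5 lower at an unadjusted p under 0.05 and 3 and 3 by DESeq2 with all libraries). The annealing helicase Zranb3 rose (log2 0.45, SE 0.13, edgeR adjusted p = 0.0398), and the translesion polymerase Polk fell (−0.49, SE 0.14, 0.0348). Zranb3 lost its call without any library except THCaP3 (up to 0.111), and Polk without TH2 (0.119), TH3 (0.119), THCaP1 (0.115) or THCaP2 (0.0716). Of 3 genes that reverse damage directly 0 were called by edgeR, DESeq2 or limma-voom, with 1 at an unadjusted p under 0.05. The most abundant, Alkbh3, stood at 36.6 ± 1.47 CPM on TH against 37.3 ± 2.82 CPM on THCaP.

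A list of genes that p53 is known to switch on after damage held 15 tested genes besides the 45. Of these 5 fell, beside 12.0% of all tested genes, and 0 rose by edgeR (7 fell and 0 rose at an unadjusted p under 0.05 and by DESeq2, 5 and 0 by limma-voom), and the median log2 fold change was −0.32. Bbc3, which encodes the death-promoting protein PUMA, stood at 91.0, 95.6 and 93.7 CPM on TH against 53, 43.7 and 60.4 CPM on THCaP (log2 −0.84, SE 0.11, edgeR adjusted p = 0.00344). Pmaip1, encoding NOXA, stood at 356, 348 and 363 CPM on TH against 249, 215 and 264 CPM on THCaP (log2 −0.55, SE 0.090, edgeR adjusted p = 0.00599). The cell cycle inhibitor Cdkn1a stood at 207, 199 and 193 CPM on TH against 144, 145 and 151 CPM on THCaP (log2 −0.45, SE 0.073, edgeR adjusted p = 0.006). These groups were far apart in relation to their spread, and the calls of Bbc3, Pmaip1 and Cdkn1a held without each library in turn. The number of p53 targets called lower was 3 without TH2 or TH3 and 9 without THCaP3, and the median was −0.19 without THCaP2. Trp53 itself was not called (159 ± 9.36 and 187 ± 24.8 CPM, edgeR adjusted p = 0.131).

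Genes of the cell cycle moved with the repair genes. Of 34 replication genes that are not among the 45, 29 were higher and 1, Gins3, was lower, with a median log2 fold change of 0.77, and of 26 mitosis genes 22 were higher and 0 lower with a median of 0.48, beside 11.6% of all tested genes called higher. No mitosis gene was lower at an unadjusted p under 0.05 or by DESeq2 or limma-voom. These counts too changed when a single library was left out. Without TH2, TH3 and THCaP1 in turn 15, 16 and 17 replication genes were called higher, and 16, 14 and 12 mitosis genes, while the medians stayed at 0.56 or more and 0.41 or more over all omissions. The Gins3 call (edgeR adjusted p = 0.0439) was lost with library totals, with the replicate block and without TH2, TH3, THCaP1 or THCaP2. The mean log2 level of the 45 genes, relative to the mean of the 6 libraries, was −0.29, −0.18 and −0.17 in TH1, TH2 and TH3, against 0.21, 0.40 and 0.023 in THCaP1, THCaP2 and THCaP3. The replication genes stood at −0.34, −0.35 and −0.31 on TH and at 0.34, 0.68 and −0.023 on THCaP. Both lists were thus highest in THCaP2 and, among THCaP libraries, lowest in THCaP3. In bulk RNA a larger share of cells in S phase and more transcript per cell cannot be told apart, and the part of the cell cycle in the differences of repair genes was not tested.

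**Figure D5:**
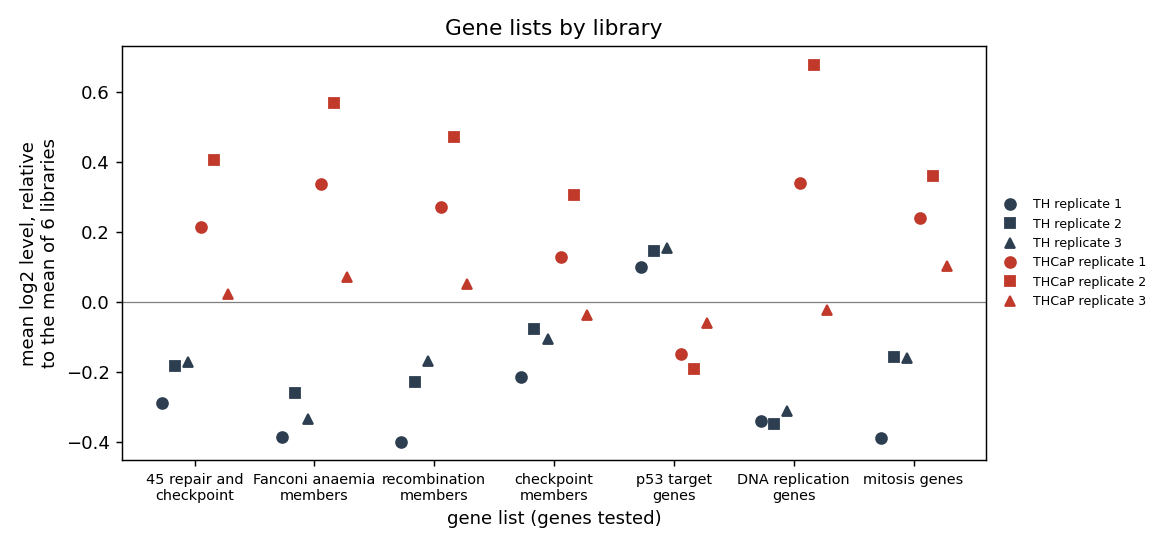
Mean log2 level of gene lists in each library relative to the mean of the 6 libraries, dark for TH and red for THCaP, with circles, squares and triangles for replicates 1, 2 and 3. The 45 repair genes, their Fanconi, recombination and checkpoint members and the replication and mitosis genes are higher on THCaP with THCaP3 nearest to TH, and the p53 target genes are lower.

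Facts of the whole series bear on these values as follows. Library totals ran from 28000099 to 30317108 counts, and each of the 45 genes had between 83 and 19418 counts in every library, so none was near the detection limit. In processed FPKM the 45 genes ranged from 0.721 to 156 with a median of 5.90, against 10.3 for all tested genes. All 10 macrophage markers were tested, summing to 2905 to 3370 CPM on TH against 3153 to 3364 CPM on THCaP. Among them Mpeg1 (edgeR adjusted p = 0.0025) and Lyz2 (0.0223) were called higher, and Cd14, Cd68 and Ptprc were lower in every THCaP library than in any from TH but not called. Csf1r was higher in every THCaP library than in any from TH but not called (edgeR adjusted p = 0.0504). Lyz2 lost its call without TH2, TH3 or THCaP1 (edgeR adjusted p up to 0.0904). The stromal, endothelial, neutrophil and epithelial markers in the table summed to at most 0.350 CPM in any library, and S100a8 was at 0 counts throughout. The osteoblast markers summed to 1.19 to 2.07 CPM on TH against 1.23 to 1.5 CPM on THCaP, and the lymphoid markers to 0.301 to 0.573 and 0.307 to 0.669 CPM. Exons of 8 of the 45 genes shared more than 10% of their bases with another annotated gene: besides Apex1, Ddb2 and Rad54b these were Rad54l with Lrrc41 (15.4%), Fanci with Polg (16.0%), Fanca with Zfp276 (10.5%), Fancl with Vrk2 (13.7%) and Fancc with Gm16133 (16.4%). Polg was called higher (log2 0.29, SE 0.082, edgeR adjusted p = 0.032), while Lrrc41, Zfp276, Vrk2 and Fsbp were not called.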

How the data were processed

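RNA-seq of 6 libraries, 3 from cells on TH and 3 from cells on THCaP, was used, with group and replicate number taken from each label. The deposited table of counts gives reads per gene as whole numbers without scaling. The submitters' processing notes name fastp, HISAT2, HTSeq and the mouse build mm10. Their versions, the annotation and the strand setting: not given in the sources used here. The deposited FPKM follow from these counts, the library totals and a gene length, since the implied length was whole within 0.01 bases in 100% of the 11923 genes that reached 10 counts. They serve here for levels per length and for ratios.

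The test was edgeR 4.0.16 in R 4.3.3. Of 16171 genes 11480 passed filterByExpr (at least 10 counts, 15 in total). Scaling used TMM factors, and THCaP was set against TH by quasi-likelihood F tests (robust) without covariates. Adjusted p-values are Benjamini-Hochberg over all tested genes, and genes were called under 0.05. SE was derived from the log2 fold change and the F value. Alternatives used DESeq2 1.42.0, limma-voom (limma 3.58.1), other scaling and filters, a length correction (mgcv 1.9.3), a block for the replicate number and the omission of each library. Ratios were compared by exact two-sided permutation. A count of 0 allows up to 3 counts, at most 0.107 CPM, for counting error only.

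The members, pathway lists, motifs and tests were chosen with earlier results of these data known. Every member is accounted for. Values in every library were to be given for called members with the 14 largest changes, for the largest called and the most abundant member of each pathway, and for uncalled members over 0.3 on the log2 scale. Of the wider list, 2 called genes per pathway with the largest change and at least 5 CPM were to be named, or the most abundant. A few genes of that list are not reported here. Prkdc, Mre11a, Trp53, Trp53bp1, Cdkn1a, Rad52 and Gins3 were added after their values were seen. Gene positions are from GENCODE vM21 (GRCm38, the assembly of mm10), and promoters from RefSeq GRCm38.p6.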

Additional observations from a re-analysis of the deposited data

How the results depend on the processing

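All 23 called genes kept their call with DESeq2, limma-voom, RLE factors, library totals, no filter, a correction for gene length and the replicate block, and 22 of the 22 tested did so with a filter of 5 CPM. Of 22 genes not called, DESeq2 called 6 more. Scaling by library totals alone called 28 genes and gave the 45 a median log2 fold change of 0.52; the median over all tested genes moved from 0.0064 to 0.059. Over all tested genes, library totals called 1904 higher and 1063 lower rather than 1333 and 1376. Tested against a fold of 1.2, 8 of the 45 genes were called higher (Brca2, Exo1, Fanca, Fancg, Fanci, Rad51ap1, Rad54l and Xrcc5), with 9 higher and 2 lower in the wider list and 181 higher and 351 lower over all genes. This stricter question calls fewer genes by construction. Leaving out each library in turn gave 10 to 34 of the 45 genes higher and 0 to 1 lower (Atr, without TH replicate 1), 13 to 45 higher and 3 to 15 lower in the wider list, and 291 to 2145 higher and 465 to 2020 lower over all genes. The cause was not tested. Same-numbered libraries of the surfaces did not deviate together (correlations of −0.02, −0.07 and 0.06). With 3 libraries per group this cannot settle whether the numbers pair the samples. With the replicate block 26 of the 45 were called higher and 0 lower, 39 and 11 in the wider list, and 1424 and 1457 over all genes.

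Signs changed only in genes near 0, and those values were not called. With library totals Blm was at 0.038, Atm at 0.037 and Xpc at 0.00014, and with the length correction Blm was at 0.014 and Atm at 0.043. Over the omissions of each library Blm ranged from −0.14 to 0.058, Atm from −0.14 to 0.081, Xpc from −0.13 to 0.034, Rad18 from −0.11 to 0.11 and Alkbh3 from −0.031 to 0.078. The lowest count of any of the 45 genes in a library was 83, and whether depth limited the calls was not tested.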
